A study of Caenorhabditis elegans with 12 samples.

Results

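The histone genes of Caenorhabditis elegans were followed in poly(A)-enriched RNA from whole adult worms, together with the ribosomal RNA (rRNA) that remained in each library. Members were all rows of the deposited count table whose WormBase symbol is his- followed by a number, which gave 72 of 46748 gene rows. The rRNA share of a library is the share of its counts on the 21 rows whose symbol starts with rrn-. The study had 12 libraries in 4 groups of 3, labelled as biological replicates. The groups were sek-1(km4) worms under dietary restriction (sek-1 DR), sek-1(km4) worms fed ad libitum (sek-1 AL), N2 worms under dietary restriction (N2 DR) and N2 worms fed ad libitum (N2 AL). N2 is the laboratory wild type, and km4 is a deletion allele of sek-1, which encodes a MAP kinase kinase of the p38 pathway. All worms were kept on fluorodeoxyuridine (FUdR), an inhibitor of DNA synthesis used to prevent progeny, were moved to liquid culture as day 3 adults and were frozen as day 6 adults. AL and DR differed in the optical density of growth-arrested OP50 bacteria, 3 for AL and 0.1 for DR. RNA came from whole animals, and in such bulk samples fewer cells of a type and less RNA per cell cannot be told apart.

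Histones H2A, H2B, H3 and H4 form the core around which DNA is wrapped, and the linker histone H1 binds between cores. In animals the replication-dependent core histone genes are small, have no introns and lie in clusters of many near-identical copies. Their mRNAs usually end in a conserved stem-loop, bound by the stem-loop binding protein, instead of a poly(A) tail. Genes for replacement variants such as H3.3 are expressed outside S phase, have introns and yield polyadenylated mRNA. Poly(A) enrichment is meant to remove rRNA, whose bulk carries no poly(A) tail. Somatic cells of the adult worm no longer divide, while the germ line does.

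Total counts were 13673987 to 31675540 per library, of which 7195625 to 19688923 lay outside rRNA. The rRNA share was 34.998%, 32.6% and 44.95% in sek-1 DR replicates 1 to 3, 36.1%, 36.4% and 35.9% in sek-1 AL, 35.3%, 37.03% and 38.1% in N2 DR, and 37.8%, 50.9% and 47.4% in N2 AL. The 95% Wilson intervals were at most 0.0265 percentage points to either side and cover counting error only. The row of the mutated gene, sek-1, held 20.8 to 22.4 counts per 1000000 counts after scaling by TMM (TMM-scaled CPM) in sek-1 DR, 16.4 to 18.8 in sek-1 AL and 23.4 to 28.5 in N2 DR, and 22.8, 20.8 and 3.72 in N2 AL replicates 1 to 3. A row for the whole gene can also count reads outside a deleted stretch. The extent of the deletion relative to the counted exons was not checked. The row therefore does not check the genotype labels, and its 1 low value was N2 AL replicate 3. The 3 libraries of 40% rRNA or more were N2 AL replicates 2 and 3 and sek-1 DR replicate 3. In all 3 most rRNA was large rRNA, 26S and 18S. It took 50.8% of counts in N2 AL replicate 2, 45.6% in N2 AL replicate 3 and 43.98% in sek-1 DR replicate 3. In N2 AL replicate 1 it took 37.7%, and in sek-1 DR replicate 1 34.8%. The 3 libraries differed in small RNAs. In N2 AL replicate 2, 5S rRNA stood at 333 counts per 1000000 counts outside rRNA (CPM outside rRNA), against 331 in N2 AL replicate 1. Of all counts, 5S rRNA took 0.308% in N2 AL replicate 3 and 0.223% in sek-1 DR replicate 3. 5S rRNA stood at 4053 CPM outside rRNA in sek-1 DR replicate 3 and at 5853 in N2 AL replicate 3, against 281 to 1172 in the 9 libraries under 40%. Spliceosomal snRNA, which also lacks a poly(A) tail, stood at 351 and 489 CPM outside rRNA in those 2 libraries, against 52.8 in N2 AL replicate 2 and 43.3 to 70.6 in the 9 libraries. The replicate 3 libraries of sek-1 DR and N2 AL were also the shallowest, and results below are given also without one or more of these 3 libraries.

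The 72 genes held 17 H2A, 16 H2B, 15 H3, 16 H4 and 5 H3.3 genes, the H1 gene his-24, and 2 short genes, his-39 and his-73, that were put in no class. Of these, 61 were core histone genes without an intron, 16 for H2A and 15 each for H2B, H3 and H4. In the annotation 7 members had an intron: his-24, the H2A gene his-35, the H2B gene his-41, the H4 gene his-37, and the H3.3 genes his-71, his-72 and his-74. The other H3.3 genes, his-69 and his-70, had none. By level per length, as mean CPM outside rRNA and per kb of exon, the intron-containing his-72 led with 817, followed by his-74 with 333.

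The H1 gene his-24, on chromosome X (14490094 to 14491119, WBcel235 in the Ensembl annotation), stood at 222 on that scale. Among intronless core genes, the 16 genes of 3 clusters on chromosome IV stood at 56.2 to 273, with a median of 124, and the other 45 at 6.45 to 81.4, with a median of 17.5. The 16 genes supplied 66.5% to 77.3% of all counts of the 61 core genes in every library. The H2B genes his-48, his-58 and his-66 were the highest of them, at 273, 261 and 266 per kb. The H3.3 gene his-69 was low in every library, at 0.610 to 2.60 TMM-scaled CPM, and passed no test. The lowest member was his-70, with 0 to 3 counts per library, which left 71 members in the tests. A count of 0 allows up to 3 counts, which is 0.152 to 0.417 CPM outside rRNA by library. Of the members, 36 share a gene name with near-identical copies in the Ensembl annotation, in 14 sets. In 13 of these the counts of the copies were close, with a median ratio of variance to mean of 0.114 to 1.92. For the 11 like copies of 5S rRNA it was 0.831. No random split of reads was computed for sets of 2 to 4 copies, so the 5S value is only a loose reference. The 1.92 belongs to his-47, his-57 and his-65, where his-57 has 678 nt of exon and the others 384. In single libraries the ratio reached 11.3 among these 13 sets, for his-46 and his-56. In the set of his-20, his-22, his-52 and his-54 the median ratio was 10.7. Values of single copies are therefore uncertain, and class totals are given beside them.

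**Figure D1:**
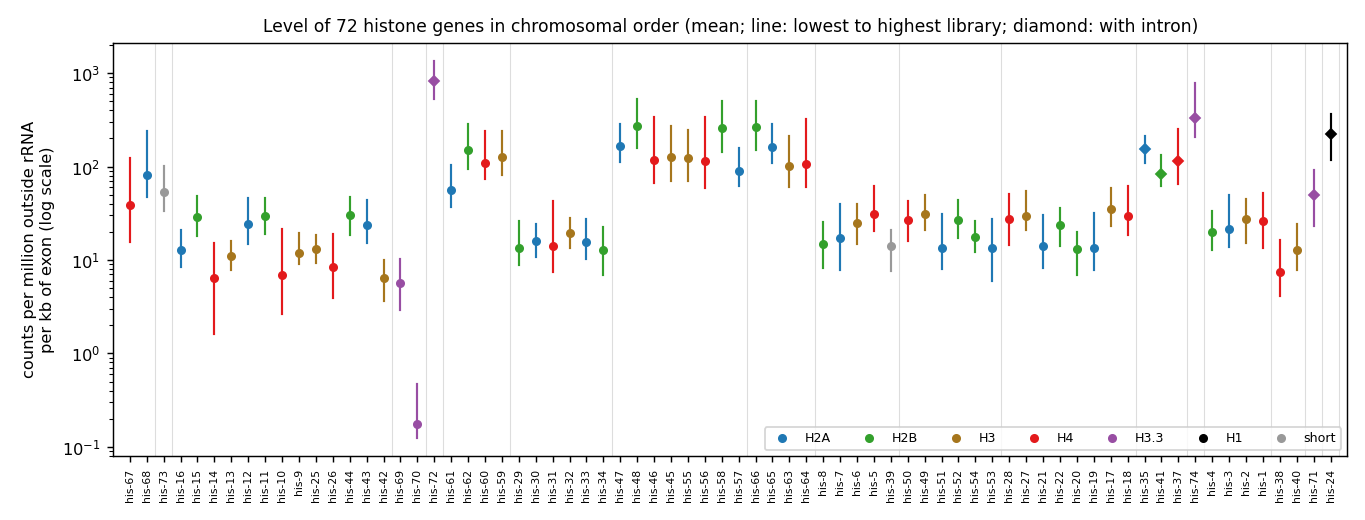
Level of each of the 72 histone genes in chromosomal order, as CPM outside rRNA and per kb of exon on a log scale. Points are means of 12 libraries, lines run from the lowest library above 0 to the highest, diamonds mark genes with an intron, colours mark the class and grey lines separate clusters. The 16 core genes in the clusters his-59 to his-62, his-45 to his-58 and his-63 to his-66 reach 56.2 to 273, while his-72 has 817 and his-70 is near 0.

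Core histone mRNA without introns was higher in the libraries with more rRNA. Its 61 genes summed to 864, 821 and 1604 CPM outside rRNA in sek-1 DR replicates 1 to 3, 1199, 973 and 1129 in sek-1 AL, 930, 1022 and 1164 in N2 DR, and 1119, 2096 and 2037 in N2 AL. The 3 libraries of 40% rRNA or more held 1604 to 2096 and the other 9 held 821 to 1199, without overlap. The sum of the 7 intron-containing members did not follow this order. It was 1204, 1429 and 1602 CPM outside rRNA in sek-1 DR, 1125, 992 and 1442 in sek-1 AL, 815, 802 and 946 in N2 DR, and 774, 786 and 1487 in N2 AL.

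Because the libraries fall into 2 clusters by rRNA share, no correlation over all 12 is given. Over the 9 libraries under 40% the summed core histone level and the rRNA share had Pearson r = 0.76 and Spearman rho = 0.68, and r = 0.61 to 0.85 with each library left out in turn. The sum of all 72 members, which holds the intron-containing ones, had r = −0.27 and rho = −0.22 over the same libraries. For the core sum, without the 2 libraries farthest from the median share, r was 0.52 (7 libraries). For the sum of the 7 intron-containing members over the 9 libraries, r was −0.68 and rho −0.67. These values describe the libraries, which share genotype and diet in sets of up to 3. In the 6 libraries of sek-1 AL and N2 DR, with group means removed, r was 0.59 and rho 0.26 for the core sum, and r was 0.15 and rho −0.20 for the intron-containing sum, where the sign of r turned.

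**Figure D2:**
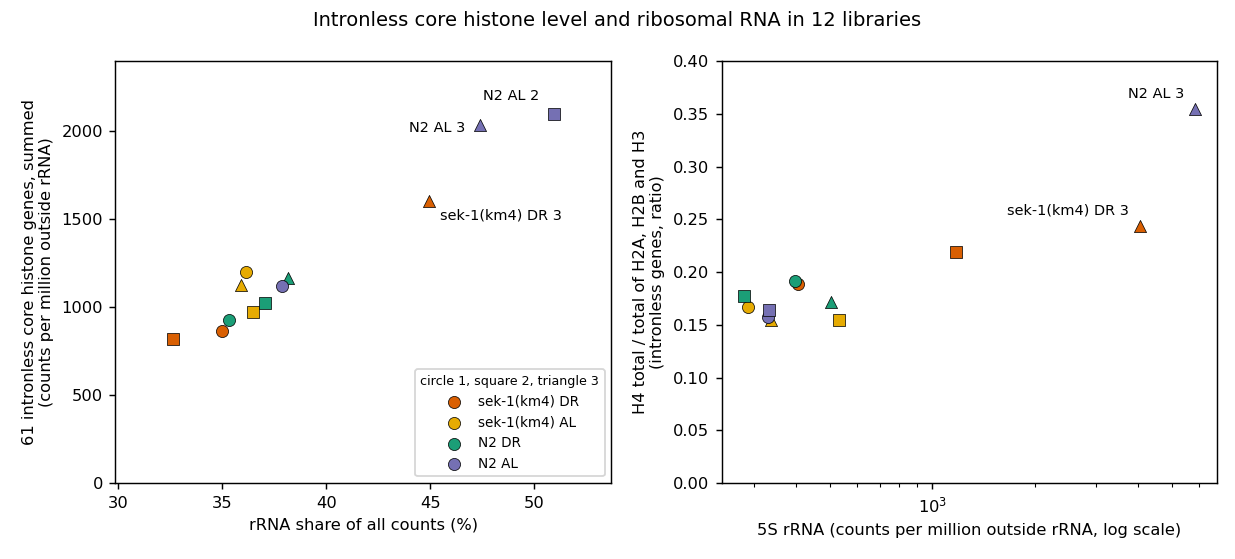
The left panel shows the summed level of the 61 intronless core histone genes (CPM outside rRNA) against the rRNA share of each library. The right panel shows the ratio of the H4 total to the total of H2A, H2B and H3, intronless genes only, against the 5S rRNA level (log scale). Each point is 1 of 12 libraries. The 3 libraries with 44.95% to 50.9% rRNA hold 1604 to 2096 CPM outside rRNA, and the ratio is 0.244 and 0.355 in the 2 libraries with the most 5S rRNA.

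Within a group, N2 AL replicate 2 had more of nearly every core histone than N2 AL replicate 1. It was higher for 59 of the 61 core genes, with a median ratio of 1.87, and the medians were close in the 4 classes, at 1.89 for H2A, 1.91 for H2B and 1.85 for H3 and H4. Of the 7 intron-containing members 3 were higher, with a median ratio of 0.995 (0.928 to 1.12). The H1 gene his-24 stood at 122 CPM outside rRNA in N2 AL replicate 2 and at 131 in N2 AL replicate 1, and the sum of the H3.3 genes at 549 and 526. Other coding genes with under 450 nt of exon, a length class that holds 60 of the 61 core histone genes, had a median ratio of 1.03 (589 genes), and those of 1000 nt or more 1.04 (9756 genes).

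N2 AL replicate 3, set against the same library, had another pattern. Its core histone genes had a median ratio of 2.11, with 3.46 for H4, 2.63 for H2A, 1.61 for H3 and 1.60 for H2B, and the 7 intron-containing members had 1.89. Other coding genes under 450 nt had a median ratio of 3.86, those of 450 to under 1000 nt 2.16, and those of 1000 nt or more 0.894. In sek-1 DR replicate 3 against sek-1 DR replicate 1 all 61 core genes were higher, with a median ratio of 1.94, of 2.43 for H4 and of 1.79 to 1.91 for the other classes. There the other coding genes under 450 nt had a median ratio of 1.48 and those of 1000 nt or more 1.02.

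The balance among core histones differed between libraries. Totals here are of intronless genes only. The H4 total was 0.355 of the H2A, H2B and H3 total in N2 AL replicate 3, 0.244 in sek-1 DR replicate 3 and 0.164 in N2 AL replicate 2. It was 0.154 to 0.219 in the 9 libraries under 40%.

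**Figure D3:**
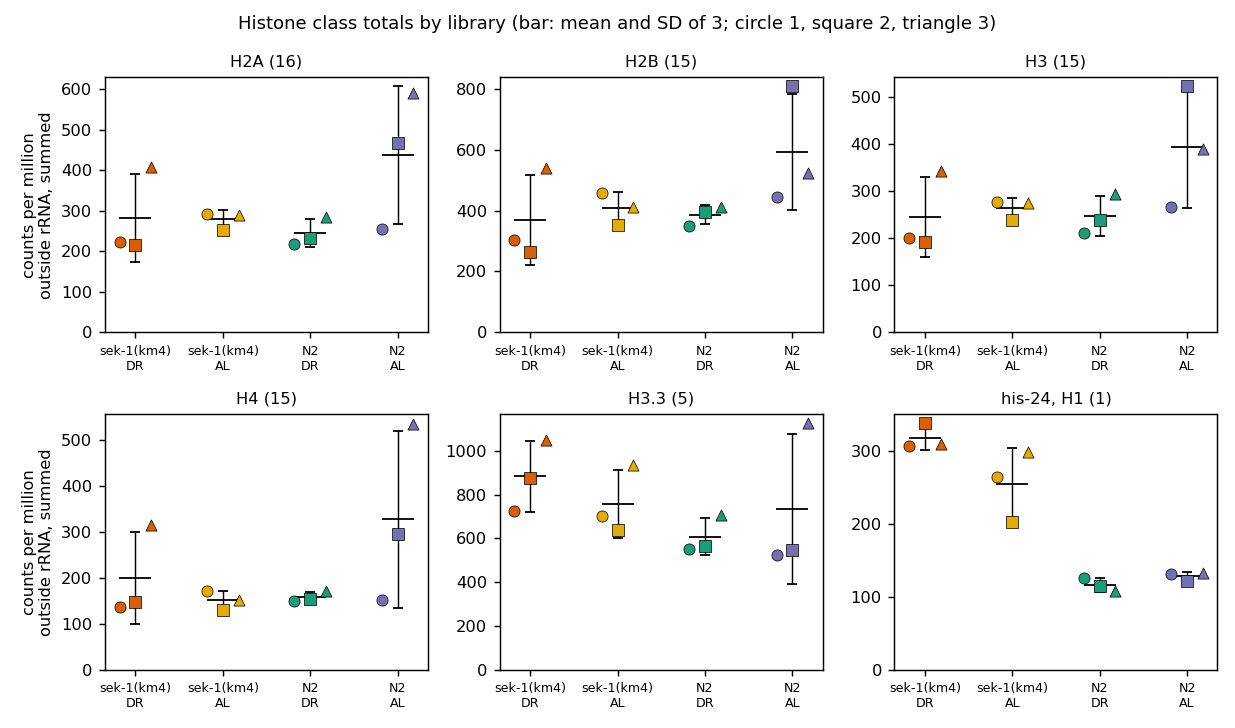
Summed level of each histone class (CPM outside rRNA) in the 12 libraries; points are libraries, bars the mean and SD of 3, and the number of genes is in brackets, core classes without their intron-containing gene. The core classes are highest in N2 AL replicates 2 and 3 and in sek-1 DR replicate 3, while his-24 is at 203 to 339 in every sek-1(km4) library and at 108 to 133 in every N2 library.

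To set single members against rRNA within groups, each gene was fitted in edgeR with group means and the rRNA share as a term, the rrn- rows left out. The slope is a log2 change per 10 percentage points of rRNA. It was positive for 61 of 61 intronless core genes, with a median of 0.73, and for 69 of all 71 members, against 48.8% of the 14711 genes tested. A positive slope was also common among other short genes. It was found in 82.0% of other coding genes under 450 nt, with a median of 0.38 (594 genes). Among those of 450 to under 1000 nt it was 75.9%, with a median of 0.20, and among those of 1000 nt or more 36.6%, with −0.08. The 7 intron-containing members had a median of 0.18. No slope passed the threshold of an adjusted p under 0.05, in the members (0 of 71) or in the whole table (0.0%). At an unadjusted p under 0.05 stood 56 members, all with higher levels at more rRNA, against 1.68% of all genes. Histones are 0.483% of the genes tested, and they held 19 of the 20 smallest p-values, 39 of the 50 smallest and 53 of the 100 smallest. DESeq2 called 6 genes in all (0.0198%), of which 5 were histones: the H2A genes his-47, his-57 and his-65, the H4 gene his-50 and the H3 gene his-2. Of these, his-47, his-57 and his-65 share a gene name as near-identical copies, so their calls are not separate results. Copies that share a name also enter the other counts of members here. The 5 histones were named after their values were seen. The relation itself was known from these libraries, so the slopes describe it and are not independent evidence.

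The H2A gene his-47 had 26.7, 24.4 and 45.2 TMM-scaled CPM, the scale of all single-gene levels from here on, in sek-1 DR replicates 1 to 3, 39.999, 29.8 and 33.9 in sek-1 AL, 28.6, 31.5 and 37.2 in N2 DR, and 37.3, 70.9 and 68.5 in N2 AL. Its values in N2 AL replicates 2 and 3 lay above all others and that in sek-1 DR replicate 3 came next. Its slope was 0.72 ± 0.15 (SE; edgeR adjusted p = 0.967). Without N2 AL replicate 3 and sek-1 DR replicate 3 the median slope of all members was 0.62, and with any 1 library left out it was 0.68 to 0.74.

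A fit with both kinds of rRNA was added after the data were seen. Per 10 percentage points of 26S and 18S rRNA the intronless genes had median slopes of 0.77 for H2B, 0.67 for H3 and 0.64 for H2A and for H4, and the intron-containing members −0.14. Per doubling of the 5S level the medians were 0.24 for H4, 0.14 for H2A, −0.03 for H3 and −0.05 for H2B, and 0.15 for the intron-containing members. The classes overlapped on 5S, with 0.06 to 0.40 for H4, −0.02 to 0.28 for H2A, −0.14 to 0.16 for H3 and −0.12 to 0.04 for H2B, and no test of a difference between classes was run. On the large rRNAs 0 of 71 members passed (0.0% of all genes), with 54 at an unadjusted p under 0.05 (1.91%). On 5S rRNA 17 of 71 passed, all with a positive slope, against 35.6% of all genes in either direction and 15.5% with a positive slope. Those 17 included 7 intronless H4 genes, 6 intronless H2A genes and the intron-containing his-37, his-71, his-72 and his-74. In this joint fit 0 members passed on 5S without N2 AL replicate 2 (0.0323% of all genes), without N2 AL replicate 3 (0.0%) or without N2 AL replicate 3 and sek-1 DR replicate 3 (0.0%). At an unadjusted p under 0.05 on 5S stood 5, 0 and 0 members in these 3 fits, and on the large rRNAs 16, 54 and 43. The share of all genes at that threshold was not counted in these fits, so these counts cannot be set against it. Without these last 2 libraries the H4 median on 5S was −0.03 and the H2A median −0.01, while on the large rRNAs the medians were 0.55 for H4, 0.66 for H2A, 0.62 for H3 and 0.67 for H2B. Other coding genes under 450 nt had a median of 0.33 per doubling of 5S and of −0.21 per 10 points of the large rRNAs, where the 61 core genes had 0.04 and 0.70. With the 5S level alone 21 members passed (37.9% of all genes), 12 without N2 AL replicate 1 (23.7%) and 0 without N2 AL replicate 3 (0.528%). Without N2 AL replicate 3, 14 members stood at an unadjusted p under 0.05, where the share of all genes was not counted either.

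**Figure D4:**
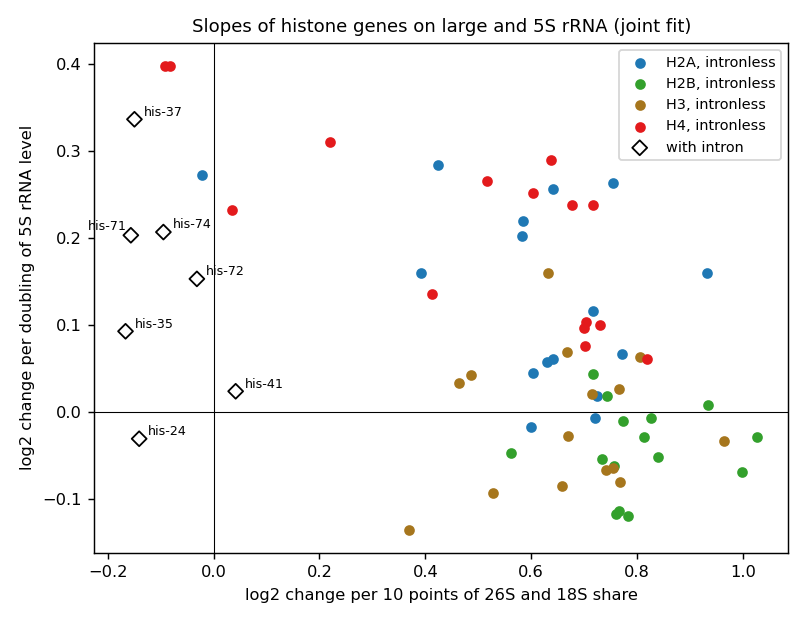
Slopes of the histone genes from 1 joint edgeR fit with group means, on the share of 26S and 18S rRNA (x axis, log2 change per 10 percentage points) and on the 5S rRNA level (y axis, log2 change per doubling). Each point is a gene. Of the 61 intronless core genes 58 lie right of 0, with a median of 0.70 on the x axis, all 15 intronless H4 genes lie above 0 on the y axis, and the 7 genes with introns lie between −0.17 and 0.04 on the x axis.

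DR against AL in N2 asked what restriction does to histone mRNA in wild type. The core histone sum was 1038 ± 118 CPM outside rRNA in N2 DR and 1751 ± 548 in N2 AL (SD, n = 3 each). The groups overlapped, because N2 AL replicate 1, at 1119, lay among the N2 DR libraries. All 61 core genes had a negative log2 fold change, with a median of −0.74, against −0.06 for all genes, of which 45.6% had a positive one, and the 7 intron-containing members had a median of −0.22. By edgeR 0 of 71 members passed, as by DESeq2, against 1.09% of all genes. At an unadjusted p under 0.05 stood 30 members, all lower, against 9.68% of all genes lower. In 25 of 71 members the DR values all lay below the AL values, against 8.84% of all genes.

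The H2B gene his-48 had 53.1, 59.04 and 59.7 CPM in N2 DR replicates 1 to 3, against 74.5, 127 and 79.4 CPM in N2 AL. The groups did not overlap, and N2 AL replicate 2 stood highest. Its log2 fold change was −0.71 ± 0.27 (SE, edgeR adjusted p = 0.276). The H2B genes his-58 and his-66 had log2 fold changes of −0.65 and −0.66. The H4 gene his-56 had 16.5, 13.5 and 17.7 CPM in N2 DR and 16.9, 34.7 and 69.95 CPM in N2 AL, where replicate 1 lay within the range of N2 DR and replicate 3 above all. The rRNA share averaged 36.8% ± 1.43 in N2 DR and 45.4% ± 6.77 in N2 AL (SD, n = 3 each). With it as a term the median log2 fold change of the core genes was −0.09. Without the 3 libraries of 40% rRNA or more it was −0.05, a fit chosen after the data were seen, in which N2 AL replicate 1 stands alone and is assumed to vary like the other groups. Germ line transcripts were also uneven within N2 AL. The summed level of 20 germ line and oocyte markers was 15256 to 15567 CPM outside rRNA in N2 DR, and 15078, 15383 and 8453 in N2 AL replicates 1 to 3. The 20 DNA replication genes summed to 7032 to 7239 CPM outside rRNA in N2 DR, and to 6650, 6854 and 4782 in N2 AL. The 12 sperm markers summed to 1.71 to 2.55 CPM outside rRNA in N2 DR, and to 3.25, 2.29 and 14.9 in N2 AL. N2 AL replicate 3 thus stood apart in all 3 lists, and their part in the histone result was not tested. Only 2 of the 12 sperm markers passed the filter. As given above, N2 AL replicate 3 also differed from N2 AL replicate 1 by gene length. Median ratios were 3.86 for other coding genes under 450 nt and 0.894 for those of 1000 nt or more. How far length enters the list sums was not tested.

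DR against AL in sek-1(km4) put the same question to the mutant. The core histone sum was 1096 ± 440 CPM outside rRNA in sek-1 DR and 1100 ± 116 in sek-1 AL (SD, n = 3 each), and the groups overlapped. Of the 61 core genes 40 had a positive and 21 a negative log2 fold change, with a median of 0.07, against 50.6% positive and a median of 0.01 for all genes. By edgeR 0 of 71 members passed, as by DESeq2, against 0.452% of all genes, and 0 had an unadjusted p under 0.05, against 13.4% of all genes. All 15 intronless H4 genes had positive values, with a median of 0.29. Without sek-1 DR replicate 3 the median of the 61 core genes was −0.31, and without sek-1 AL replicate 2 it was −0.08. Without all libraries numbered 3 the median of all members was −0.31, and 1 member passed as higher and 2 as lower, against 30.2% of all genes in that fit.

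The H1 gene his-24 had 308, 339 and 310 CPM outside rRNA in sek-1 DR replicates 1 to 3, against 264, 203 and 299 in sek-1 AL. On this scale every DR library stood above every AL library, while in TMM-scaled CPM they overlapped, and the log2 fold change was 0.23 ± 0.17 (SE, edgeR adjusted p = 0.595). The H3.3 gene his-74 had 69.2, 70.4 and 75.4 CPM in sek-1 DR against 99.2, 96.8 and 101 CPM in sek-1 AL. All DR values lay below all AL values. Its log2 fold change was −0.47 ± 0.31 (edgeR adjusted p = 0.554). It passed in 5 of 22 alternatives, among them the fit of only these 2 groups (adjusted p = 0.0147) and the fit without N2 AL replicate 3 (adjusted p = 0.00954).

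On AL, sek-1(km4) against N2 compared the genotypes under full feeding. The H1 gene his-24 rose and 12 members fell, of which 6 were H4 genes, 4 H3 genes, 1 an H2A gene and 1 the short gene his-73. So 13 of 71 members passed (18.3%), against 17.5% of all genes, a share near the background. The 12 lower calls compare with 4.72% of all genes lower, and the 1 higher call with 12.7% higher. All 61 core genes had negative log2 fold changes, with a median of −0.73, against 0.02 for all genes, of which 51.2% had a positive one.

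The H4 gene his-67 had 4.97, 4.38 and 3.65 CPM in sek-1 AL replicates 1 to 3, against 7.59, 12.2 and 25.6 CPM in N2 AL. The groups did not overlap, and N2 AL replicate 3 stood highest. Its log2 fold change was −1.79 ± 0.44 (SE, edgeR adjusted p = 0.0164). The H4 genes his-60 and his-56 fell by 1.15 ± 0.30 and 1.59 ± 0.47 on the log2 scale (edgeR adjusted p = 0.0227 and 0.0372). The H3 genes his-63 and his-45 fell by 0.98 ± 0.27 and 0.91 ± 0.27 (edgeR adjusted p = 0.0268 and 0.0361). Single libraries moved these values. Without N2 AL replicate 3 the log2 fold change was −1.18 for his-67, −0.72 for his-60 and −0.94 for his-56 (edgeR adjusted p = 0.0126, 0.0142 and 0.0900). Without N2 AL replicate 2 it was −0.67 for his-63 and −0.58 for his-45 (edgeR adjusted p = 0.0914 and 0.125). Without sek-1 AL replicate 3 none of the 5 passed, with adjusted p from 0.0663 to 0.185.

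The rRNA share averaged 36.2% ± 0.281 in sek-1 AL and 45.4% ± 6.77 in N2 AL (SD, n = 3 each). With the rRNA share as a term 0 members passed (7.08% of all genes), the median of the core genes was 0.01 and his-67 had −0.85, and without the 3 libraries of 40% rRNA or more his-24 alone passed (17.7% of all genes). The count was also 0 with only the 2 groups in the fit (8.83% of all genes). It was 25 without N2 AL replicate 1 (17.5% of all genes), 6 without N2 AL replicate 2 (15.5%), 15 without N2 AL replicate 3 (36.8%) and 14 without sek-1 DR replicate 3 (14%). It was 1, 2 and 3 without sek-1 AL replicates 3, 2 and 1, 4, 4 and 5 without N2 DR replicates 1, 2 and 3, and 7 and 5 without sek-1 DR replicates 1 and 2, where 10.1% to 16.3% of all genes passed. The 20 germ line and oocyte markers summed to 10694 to 13027 CPM outside rRNA in sek-1 AL, within the 8453 to 15383 of N2 AL. Of these 20 markers 2 passed as lower, against 4.72% of all genes lower. Their part was not tested.

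On DR the rRNA share averaged 37.5% ± 6.55 in sek-1(km4) and 36.8% ± 1.43 in N2 (SD, n = 3 each). In sek-1(km4) against N2 on DR, all 3 members that rose have introns: his-24, the H3.3 gene his-71 and the H2B gene his-41. That is 3 of 71 members (4.23%), against 39.5% of all genes. The 61 core genes had a median log2 fold change of 0.03, against 0.17 for all genes, and −0.27 without sek-1 DR replicate 3. By edgeR and DESeq2 0 of them passed, with 0 at an unadjusted p under 0.05, against 30.4% of all genes higher and 18.6% lower.

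The H1 gene his-24 had 176, 185 and 163 CPM in sek-1 DR replicates 1 to 3, against 83.3, 74.7 and 67.4 CPM in N2 DR. Every mutant library stood above every wild-type library, as on AL, with 166, 119 and 161 CPM in sek-1 AL against 89.6, 79.4 and 88.9 CPM in N2 AL. The log2 fold change was 1.22 ± 0.17 on DR (SE, edgeR adjusted p = 0.000397) and 0.79 ± 0.17 on AL (edgeR adjusted p = 0.00815). On DR it passed in all 22 alternatives, with adjusted p up to 0.00724. On AL it passed in 19 of 22, and not with the rRNA share as a term (adjusted p = 0.137), with 5S and large rRNA as terms, or with only the 2 groups fitted (adjusted p = 0.0821).

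Of the H3.3 genes, his-71 had 19.3, 25.6 and 28.5 CPM in sek-1 DR, against 13.1, 13.2 and 12.9 CPM in N2 DR, without overlap (log2 fold change 0.90 ± 0.32, edgeR adjusted p = 0.0437). The most abundant member, his-72, had 325, 379 and 447 CPM in sek-1 DR, against 238, 232 and 280 CPM in N2 DR (0.62 ± 0.26, edgeR adjusted p = 0.0839). In the other direction his-74 had 69.2, 70.4 and 75.4 CPM in sek-1 DR, against 111, 119 and 147 CPM in N2 DR (−0.81 ± 0.31, edgeR adjusted p = 0.0577). The H3.3 genes thus lay on both sides, his-71 and his-72 with every sek-1 DR library above every N2 DR library and his-74 with every one below.

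The H2B gene his-41 had 26.4, 30.6 and 35.9 CPM in sek-1 DR, against 23.2, 22.4 and 21.6 CPM in N2 DR (0.47 ± 0.17, edgeR adjusted p = 0.0438), and the H2A gene his-35 had 0.49 ± 0.19 (edgeR adjusted p = 0.0567). Over the alternatives his-71 passed in 14 of 22 and his-41 in 5 of 22. The count of members that passed was 10 without N2 AL replicate 3 (64.6% of all genes), and 1 without sek-1 DR replicate 2 or any of the N2 DR libraries (25.2% to 30.4%). Without N2 AL replicate 3 and sek-1 DR replicate 3 it was 16, of which 11 were core genes that were lower, against 59.8% of all genes. Germ line transcripts also moved with the genotype on DR. The summed level of 20 germ line and oocyte markers was 8670 to 10462 CPM outside rRNA in sek-1 DR and 15256 to 15567 in N2 DR, and no marker was at 0 in either group. Of these 20 markers 15 fell, as did 8 of 9 eggshell markers, against 14.6% of all genes lower, and their part in the histone result was not tested.

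**Figure D5:**
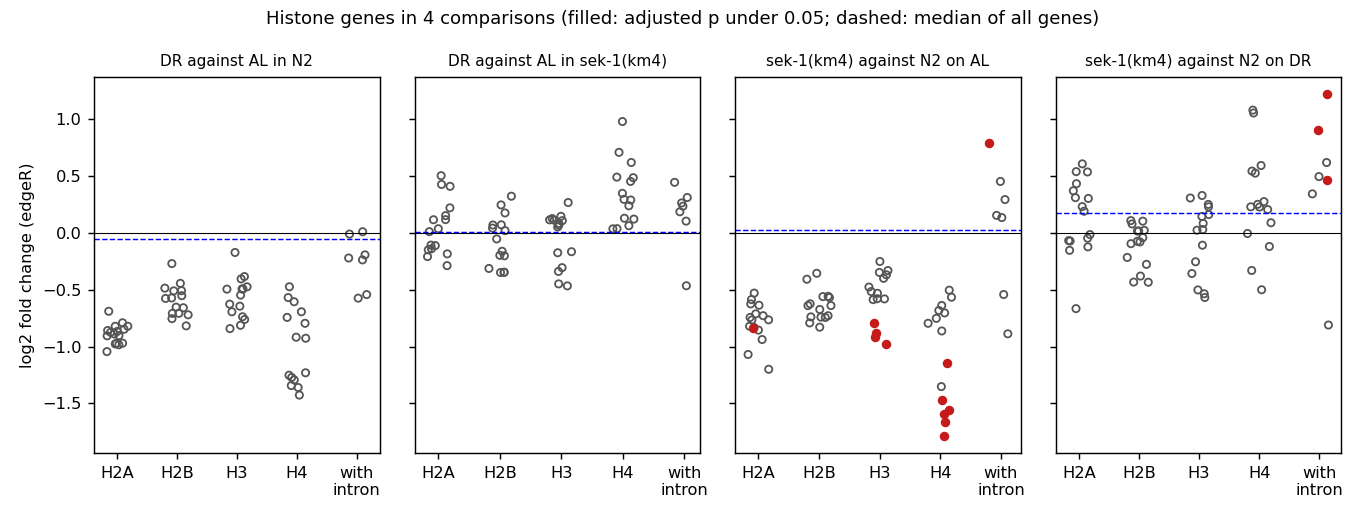
Log2 fold changes of the histone genes (edgeR) in 4 comparisons, by class of intronless gene and for the 7 genes with introns. Filled points have an adjusted p under 0.05, and the dashed line is the median of all genes. Core genes lie below 0 where N2 AL is the group compared against, with medians of −0.74 and −0.73, and around 0 in the other 2 comparisons.

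The difference between the genotypes in their response to DR was tested as an interaction. The log2 estimate was positive for 70 of 71 members, with a median of 0.66, against 55.1% and 0.08 for all genes. By edgeR 0 of 71 members passed and 0.0% of all genes, and DESeq2 called 0 members. At an unadjusted p under 0.05 stood 8 members, all positive and 7 of them H4 genes, against 5.78% of all genes with a positive estimate. The median was −0.06 with the rRNA share as a term and −0.24 without the 3 libraries of 40% rRNA or more.

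Other genes of histone biology were read from 4 lists. Among 12 histones outside the his- symbols, of which 11 were tested, 4 rose and 3 fell in sek-1(km4) on DR, and 2 rose and 3 fell on AL, where 39.5% of all genes passed on DR and 17.5% on AL. The H1-like gene hil-7 rose most, by a log2 fold change of 4.13 ± 0.28 on DR and 3.74 ± 0.28 on AL (edgeR adjusted p = 5.74e-06 and 1.04e-05). The centromeric H3 genes cpar-1 and hcp-3 fell on DR by 1.13 ± 0.15 and 0.90 ± 0.13 on the log2 scale. Of 5 genes for histone mRNA processing, which include the stem-loop binding protein gene cdl-1, 2 fell on DR, csr-1 and ego-1, by 1.14 ± 0.38 and 1.15 ± 0.39. Of 11 chaperone genes 3 fell on each diet, among them the H3-H4 chaperone genes unc-85 and asfl-1. Of 20 DNA replication genes 3 fell on DR and 1 on AL, with orc-1, of the origin recognition complex, in both. All calls between genotypes in the processing, chaperone and replication lists were lower, where 14.6% of all genes were called lower on DR and 4.72% on AL. Neither diet contrast called a gene of these 4 lists, where 1.09% of all genes passed in N2 and 0.452% in sek-1(km4). Their 11, 5, 11 and 20 tested genes held 2, 0, 2 and 0 at an edgeR unadjusted p under 0.05 in N2, against 14.03% of all genes. In sek-1(km4) they held 6, 0, 1 and 1, against 13.4% of all genes. On the rRNA share, 0 genes of the 4 lists passed (0.0% of all genes) and 0 had an unadjusted p under 0.05 (1.68% of all genes). The list medians were −0.15 to 0.02, where the intronless core histones had 0.73.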

How the data were processed

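Whole worms were sequenced after poly(A) enrichment as 50 bp single-end reads, per the labels' protocols. The deposited table holds raw counts per gene, made with featureCounts of Subread per the submitters' processing notes; no source used here names the aligner, genome build or strand setting. Symbols and exons came from the RefSeq and Ensembl annotations of WBcel235. No genome sequence was used, so the search for stem-loops and the check of unique 50-base windows were not run, and no sequence is printed.

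Genes were tested on the counts as deposited with edgeR 4.0.16 (R 4.3.3; TMM, filterByExpr with a minimum count of 10, robust quasi-likelihood fit, Benjamini-Hochberg adjustment over all 14611 genes, threshold 0.05), with all 12 libraries and a mean per group. The filter kept 71 of 72 members. DESeq2 1.42.0 was an alternative. The script was tested on simulated data. Slopes used 14711 genes without the rrn- rows. Class totals are counts per 1000000 counts outside rRNA, and single genes are TMM-scaled CPM. Labels call the replicates biological but name no separate cultures, so p-values measure the spread between these samples.

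Members and lists were chosen with earlier results of these data known. Named were his-24, the H3.3 genes, the 8 members with the highest mean CPM, and up to 6 members per comparison with the smallest adjusted p under 0.05. Other named members were chosen after their values were seen.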

Additional observations from a re-analysis of the deposited data

How the results depend on the processing

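Values in this paragraph are counts of histone genes that passed, or median log2 estimates of the 71 members. Except for the slopes, counts here and in the paragraphs below stand without the share of all genes, which moved with the fit. In fits given above that share was 7.08% to 36.8% for genotype on AL and 25.2% to 64.6% for genotype on DR. For DR in sek-1(km4) it was 0.452% in the main fit and 30.2% without all libraries numbered 3. A higher or lower count given without that share is therefore not by itself a change particular to the histones. In N2, DR against AL had a median of −0.10 with the rRNA share as a term, −0.063 with 5S and large rRNA as terms and −0.048 without the 3 libraries of 40% rRNA or more; 1 gene passed without all libraries numbered 3 and 2 without N2 AL replicate 3 and sek-1 DR replicate 3. In sek-1(km4), 1 gene passed with only the groups compared and with 5S and large rRNA as terms, 2 without the 3 libraries and without the pair of replicates 3, and 3 without all libraries numbered 3, with medians of −0.34 without the pair and −0.31 without all numbered 3. For sek-1(km4) against N2 on AL the count was 23 by DESeq2, 8 without a filter and with rrn- rows left out, 24 without the pair, 1 without the 3 libraries (median 0.0133) and with 5S and large rRNA as terms (median 0.064), and 0 with the rRNA share as a term (median 0.0132) or only the groups compared. On DR it was 9 with only the groups compared and with 5S and large rRNA as terms, 10 without all numbered 3, 18 without the 3 libraries and 16 without the pair (median −0.30). The interaction's median was −0.063 with the rRNA share, −0.20 with 5S and large rRNA, −0.24 without the 3 libraries, 0.13 without the pair and 0.25 without all numbered 3, where 1 gene passed. On the rRNA share 5 histones passed by DESeq2, of 6 genes in all. Without all numbered 3 it was 4, of 4 genes in all (14443 tested), among them his-45 and his-55, which share a gene name. Over 9 libraries the relation of the core sum to the rRNA share had r = 0.61 to 0.85 with each library left out, and that of the mean log2 CPM had r = 0.63 (0.43 to 0.78). In the joint fit 0 passed on 5S without the pair (0.0% of all genes). Scaled to all counts, the log2 ratio of his-24 was 1.21 between genotypes on AL and 0.067 between diets in N2. The causes were not tested.

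With each library left out in turn, counts were 0 to 0 and medians −0.94 to −0.45 for DR in N2. For DR in sek-1(km4) they were 0 to 1 and −0.30 to 0.20. Genotype had 1 to 25 and −0.92 to −0.43 on AL, and 1 to 10 and −0.26 to 0.22 on DR. The interaction had 0 to 0 and 0.38 to 0.89. The slope on 5S had 0 to 27 (median 0.06 to 0.18). The 27 came without N2 AL replicate 2, where 1489 of 15476 genes were called higher and 2504 lower. The 0 came without N2 AL replicate 3, with 36 higher and 43 lower of 14967. In the joint fit the count on 5S was 0 to 21 (median 0.0023 to 0.084). The 21 came without sek-1 DR replicate 3, with 3130 higher and 3592 lower of 15204. On the large rRNAs the joint fit had 0 to 0 (median 0.62 to 0.75), against at most 5 in the whole table. In the comparison of genotypes on AL, his-72 had −0.0006 without N2 AL replicate 2 and up to 0.496 without replicate 3. DESeq2, which kept more low genes, had all-gene medians of −0.18 for DR in N2 and 0.37 for the interaction, against −0.06 and 0.08.

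Same-numbered replicates were not taken as pairs, because not every one of the 18 pairs correlated above 0.1 in its deviations from the group means. Those numbered 1 did (0.12 to 0.39), as did those numbered 3 (0.26 to 0.39), which makes 12 of the 13 pairs above 0.1, and those numbered 2 had −0.07 to 0.14. Of the 12 libraries 8 correlated best, on average, with their own number, a hint from the data and not from the design. With the number as a block, 6 genes passed for genotype on DR and 12 on AL, 0 in the other comparisons, and the medians were −0.69, 0.03, −0.63, 0.04 and 0.61 in the order above and 0.73 for the slope.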
